A study of Mus musculus with 6 samples.

Results

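The genes described here are 7 Toll-like receptors (Tlr1, Tlr2, Tlr4, Tlr5, Tlr7, Tlr8 and Tlr13), the endotoxin co-receptors Cd14 and Ly96, and the adaptor Myd88, chosen by symbol. All 10 were among the 21899 genes of the table and among the 12599 with enough counts to be tested. PolyA RNA was sequenced from livers of C57BL6J mice, all wild-type (WT), after 6 weeks on 1 of 2 diets. There were 3 libraries from the methionine/choline-deficient (MCD) diet, a mouse model of steatohepatitis, and 3 from the methionine/choline-sufficient (MCS) diet. The labels give neither age nor sex and do not tie each library to its own animal, and the p-values therefore reflect the spread among libraries, which may be technical.

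Toll-like receptors are membrane sensors of microbial molecules. Each has a leucine-rich ectodomain that binds a ligand and a cytoplasmic TIR domain that recruits an adaptor, in most cases Myd88, which assembles IRAK kinases and leads to NF-kB and IRF activation. In the liver they are found on Kupffer cells, recruited myeloid cells and, for some members, on hepatocytes and endothelial cells, which meet microbial products arriving from the gut in portal blood.

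Total counts were 18443357, 21285045 and 20440745 in MCD replicates 1 to 3, and 21322771, 16615469 and 20783004 in MCS replicates 1 to 3, and a floor of 3 counts lay between 0.104 and 0.227 CPM. CPM is the count scaled to library size with the TMM factors (trimmed mean of M-values). Fold changes are given on the log2 scale, MCD over MCS, with their SE. They come from the quasi-likelihood test of edgeR, and a gene was called when its Benjamini-Hochberg adjusted p over the 12599 genes was below 0.05. The hepatocyte marker Alb averaged 57663 ± 14326 CPM in MCD and 59205 ± 12603 CPM in MCS libraries (SD, n = 3 each). MCD replicate 3 had the highest level of 10 of 10 pan-macrophage markers and the lowest of 7 of 8 hepatocyte markers among the MCD libraries, and MCS replicate 3 stood apart from the other MCS libraries on the second principal component.

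The bases just upstream of the genes are shown for 4 members, the Toll-like receptors with the largest rises (Tlr13 and Tlr8), the one that fell (Tlr5) and the shared adaptor (Myd88). They are read 5′ to 3′ on the gene's strand from RefSeq's promoter table (GRCm38.p6) and end before the first annotated exon base: chrX:106143025-106143203 on the + strand, chrX:167264330-167264579 on the − strand, chr1:182954538-182954751 on the + strand and chr9:119340042-119340268 on the − strand. Capitals mark matches, on either strand, to the motif letters given after the sequences.
Tlr13: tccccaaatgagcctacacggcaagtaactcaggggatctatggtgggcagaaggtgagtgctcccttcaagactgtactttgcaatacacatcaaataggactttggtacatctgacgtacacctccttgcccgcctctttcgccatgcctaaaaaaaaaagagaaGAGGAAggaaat
Tlr8: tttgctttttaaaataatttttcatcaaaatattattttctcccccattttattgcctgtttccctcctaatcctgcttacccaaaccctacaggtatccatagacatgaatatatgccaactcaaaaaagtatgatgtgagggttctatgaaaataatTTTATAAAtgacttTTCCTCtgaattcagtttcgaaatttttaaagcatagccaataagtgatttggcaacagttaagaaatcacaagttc
Tlr5: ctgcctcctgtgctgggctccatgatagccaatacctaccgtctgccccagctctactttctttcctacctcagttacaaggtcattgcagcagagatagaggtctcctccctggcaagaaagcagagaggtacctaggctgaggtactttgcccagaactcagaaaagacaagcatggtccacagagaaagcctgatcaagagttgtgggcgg
Myd88: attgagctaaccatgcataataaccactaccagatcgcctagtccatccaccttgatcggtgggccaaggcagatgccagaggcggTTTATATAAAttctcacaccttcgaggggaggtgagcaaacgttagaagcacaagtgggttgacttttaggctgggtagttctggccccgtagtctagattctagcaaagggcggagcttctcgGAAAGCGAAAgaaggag
Motifs were searched on both strands of the table's 300-base windows, from 250 bases before to 50 after a start, of which 6 of the 10 members have at least 1. The PU.1 core GAGGAA, a site of a myeloid transcription factor, was in the windows of Tlr13, Tlr8 and Tlr1 and in 28.3% of 32851 windows of all genes. The longer ETS form AGGAAGT, which shares letters with that core, was in the window of Tlr1 and in 9.35% of windows. The NF-kB form (GGG and TTCC with any 3 bases between) was in the window of Tlr2 and in 5.56% of windows. The interferon-response form (GAAA and GAAA with any 2 bases between) was in the window of Myd88 and in 3.44% of windows. The TATA form TATAAA was in the windows of Tlr8 and Myd88 and in 13.6% of windows. Neither the AP-1 form TGANTCA (7.81% of windows) nor the HNF4 form CAAAGTCCA (0.475%) was in a member's window. These are matches of letters only, and no measurement of binding was made.

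Of the 10 genes 8 passed the test, against 24.7% of all tested genes. On the MCD diet 7 rose, while 14.8% of all tested genes rose, and 1 fell, while 9.97% of all tested genes fell. The 7 were Tlr13, Tlr8, Cd14, Tlr1, Tlr7, Tlr2 and Tlr4, and the gene that fell was Tlr5. Ly96 and Myd88 did not pass the test. The median log2 fold change of the 10 genes was 2.53, against 0.01 for all tested genes. Of all called genes 59.7% rose, and with library size alone in place of TMM it was 93.6%, with a median of 0.57 for all tested genes. CPM values of the diets did not overlap for the same 8 genes: 7 were higher in every MCD library, which holds for 23.9% of tested genes, and 1 was lower, which holds for 21.4%. Among the MCD libraries, replicate 3 was the highest for all 7 genes that rose.

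**Figure D1:**
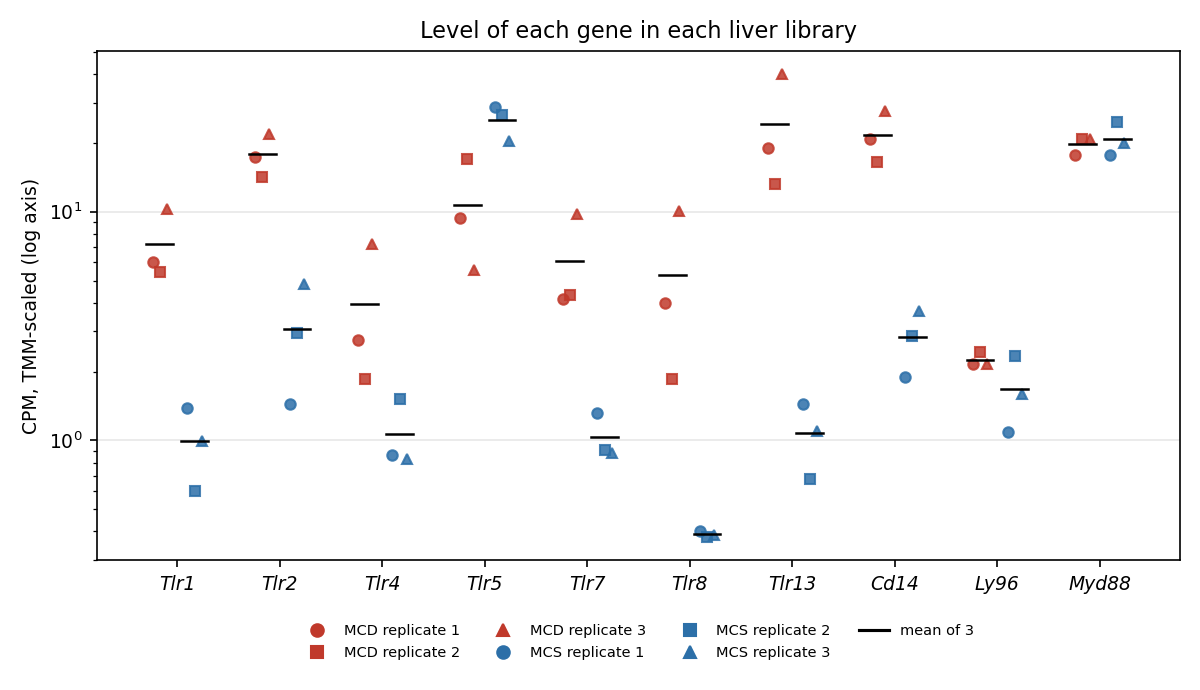
CPM (TMM-scaled, log axis) of each of the 10 genes in each library, with MCD in red and MCS in blue; symbols give the replicate and the black line the mean of 3. Tlr13 lies between 13.2 and 40.0 CPM in MCD and between 0.680 and 1.44 CPM in MCS libraries, and Tlr5 is the one receptor with all MCD values below all MCS values.

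The endotoxin receptor complex is made of Tlr4, which signals, Ly96 (MD-2), which holds the lipid A part of endotoxin, and Cd14, which hands endotoxin to the pair. Cd14 (ENSMUSG00000051439) had 20.8, 16.5 and 27.6 CPM in MCD replicates 1 to 3, against 1.90, 2.87 and 3.69 CPM in MCS replicates 1 to 3. The lowest MCD library was thus above the highest MCS library by a wide margin. Cd14 rose by 2.94 ± 0.29 (adjusted p = 0.000489) and was called with any 1 library left out (2.70 to 3.19).

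Tlr4 (ENSMUSG00000039005) had 2.74, 1.85 and 7.23 CPM in MCD replicates 1 to 3, against 0.863, 1.51 and 0.827 CPM in MCS replicates 1 to 3. The diets did not overlap, but MCD replicate 2 and MCS replicate 2 were close and MCD replicate 3 stood well above the rest. Tlr4 rose by 1.91 ± 0.56 (adjusted p = 0.0383), a call near the threshold. Without MCD replicate 1, MCD replicate 3 or MCS replicate 1, 2 or 3 it did not pass (adjusted p = 0.0635 to 0.125), and without MCD replicate 3 the log2 fold change was 1.12. By limma-voom it was 1.79 and did not pass (adjusted p = 0.111). Ly96 (ENSMUSG00000025779) had 2.16, 2.44 and 2.16 CPM in MCD replicates 1 to 3, against 1.09, 2.34 and 1.60 CPM in MCS replicates 1 to 3. The diets overlapped, since MCS replicate 2 was above both MCD replicates 1 and 3. Its log2 fold change was 0.43 ± 0.39 (adjusted p = 0.444), and it rests on 48 to 62 counts in an MCD and 19 to 31 in an MCS library. On the log2(TPM + 1) scale, which lacks TMM scaling, it was 0.96 (adjusted p = 0.0172). Whether the changes of Cd14 and Ly96 differ from each other was not tested.

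Tlr2 binds bacterial lipopeptides as a pair with Tlr1 or Tlr6. Tlr2 (ENSMUSG00000027995) had 17.3, 14.2 and 21.9 CPM in MCD replicates 1 to 3, against 1.44, 2.95 and 4.85 CPM in MCS replicates 1 to 3. Both diets varied among their libraries, and the ranges stayed apart. Tlr2 rose by 2.53 ± 0.39 (adjusted p = 0.00352) and was called with any 1 library left out (2.17 to 3.04). Its partner Tlr1 (ENSMUSG00000044827) had 6.02, 5.47 and 10.2 CPM in MCD replicates 1 to 3, against 1.38, 0.604 and 0.992 CPM in MCS replicates 1 to 3. Every MCD library was well above every MCS library. Tlr1 rose by 2.84 ± 0.40 (adjusted p = 0.00220) and was called with any 1 library left out (2.51 to 3.14). Tlr1 and Tlr6 are neighbours on chromosome 5, and 15.4% of the 50-base stretches in Tlr1 transcripts (GENCODE M21, GRCm38) also occur in another gene, Tlr6 above all, so reads could be divided between the pair. The sum of Tlr1 and Tlr6 rose by 2.98 ± 0.36 (adjusted p = 0.00126), a fit added after the values were seen.

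The endosomal receptors Tlr7, Tlr8 and Tlr13 sense RNA: Tlr7 binds single-stranded RNA, Tlr8 does so in human, and Tlr13 of the mouse recognises bacterial ribosomal RNA and has no human counterpart. All 3 genes are on the X chromosome, with Tlr7 and Tlr8 next to each other. Tlr13 (ENSMUSG00000033777) had 19.1, 13.2 and 40.0 CPM in MCD replicates 1 to 3, against 1.44, 0.680 and 1.10 CPM in MCS replicates 1 to 3. This was the widest gap among the 10 genes: 1867 counts in the MCD and 54 in the MCS libraries. Tlr13 rose by 4.46 ± 0.50 (adjusted p = 0.00142), a fold change of 22.0, and was called with any 1 library left out (3.88 to 4.72).

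Tlr8 (ENSMUSG00000040522) had 3.999, 1.85 and 10.1 CPM in MCD replicates 1 to 3, against 0.403, 0.378 and 0.386 CPM in MCS replicates 1 to 3. The MCS libraries held only 7, 5 and 7 counts, close to the 3-count floor, and the MCD libraries spread widely, with replicate 3 highest. Tlr8 rose by 3.75 ± 0.66 (adjusted p = 0.00576), or by 2.89 without MCD replicate 3, and did not pass by limma-voom (3.43, adjusted p = 0.0681). Tlr7 (ENSMUSG00000044583) had 4.13, 4.34 and 9.74 CPM in MCD replicates 1 to 3, against 1.32, 0.906 and 0.882 CPM in MCS replicates 1 to 3. MCD replicates 1 and 2 were nearly equal and replicate 3 was highest, all above the MCS libraries. Tlr7 rose by 2.54 ± 0.43 (adjusted p = 0.00504) and was called with any 1 library left out (2.02 to 2.75).

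Tlr5, the flagellin receptor, moved the other way. Tlr5 (ENSMUSG00000079164) had 9.39, 17.0045 and 5.56 CPM in MCD replicates 1 to 3, against 28.7, 26.4 and 20.3 CPM in MCS replicates 1 to 3. Every MCD library was below every MCS library, and among the MCD libraries replicate 2 was highest and replicate 3 lowest. Tlr5 fell by 1.24 ± 0.37 on the log2 scale (adjusted p = 0.0452), a call near the threshold. Without MCD replicate 1 or MCS replicate 1, 2 or 3 it did not pass (log2 fold change −1.38 to −1.14, adjusted p = 0.0541 to 0.144), nor with library size alone (−0.75, adjusted p = 0.0645), without a count filter (−1.24, adjusted p = 0.0767) or on the log2(TPM + 1) scale (−0.65, adjusted p = 0.0544). Among the MCD libraries 8 of 8 hepatocyte markers were also highest in replicate 2, and 7 of 8 were lowest in replicate 3. Of these 8 markers 2 fell (Tat and Serpina1a), while 9.97% of all tested genes fell, and 6 did not pass. The summed level of the 8 was 54888 to 92190 CPM in MCD and 78353 to 103411 CPM in MCS libraries, none of them at 0. Without MCD replicate 1 or MCS replicate 2 none of the 8 passed, without MCS replicate 1 or 3 only 1 did, and without MCD replicate 2 there were 4. By the DESeq2 Wald test 5 of the 8 fell, and at adjusted p under 0.01 in edgeR 0 did. The part of these markers in the Tlr5 result was not tested.

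Myd88 (ENSMUSG00000032508), the adaptor used by all 7 of these receptors, had 17.7, 20.7 and 20.8 CPM in MCD replicates 1 to 3, against 17.7, 24.6 and 19.9 CPM in MCS replicates 1 to 3. The ranges overlapped almost fully. Its log2 fold change was −0.07 ± 0.16 (adjusted p = 0.779), with the smallest SE of the 10 genes. The sign depends on scaling: it was 0.49 with library size alone (adjusted p = 0.0692) and 0.57 on the log2(TPM + 1) scale (adjusted p = 0.0363), settings in which the median of all tested genes was 0.57 and 0.53. Part of Myd88 lies opposite another gene: 290 exon bases are shared with Acaa1a, a peroxisomal thiolase, on the other strand (GENCODE M21, GRCm38). The labels do not state whether counting kept the strand. Acaa1a had 235 ± 64.4 CPM in MCD and 391.8 ± 14.5 CPM in MCS libraries (SD, n = 3 each; −0.74 ± 0.22, adjusted p = 0.0393), and it passed with 1 library left out only without MCD replicate 2. With library size alone it was −0.22 (adjusted p = 0.235), and its part in the Myd88 value was not tested.

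**Figure D2:**
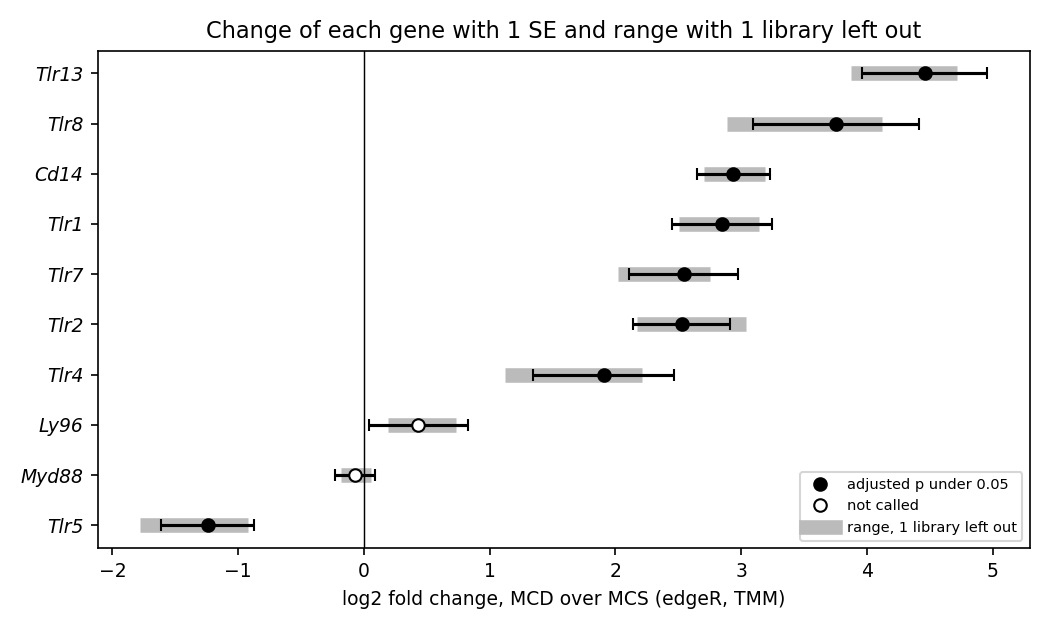
Log2 fold change of MCD over MCS for each gene (points, bars of 1 SE, edgeR with TMM; filled where adjusted p is under 0.05) and the range when 1 of the 6 libraries is left out (grey). Tlr13 is highest at 4.46 and Tlr5 lowest at −1.24, and the grey band of Tlr4 reaches down to 1.12.

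Levels of different genes were compared per transcript length, in TPM. On the MCD diet Cd14 had the highest mean, 29.8 ± 12.8 TPM, followed by Myd88 with 22.1 ± 4.65, Tlr13 with 13.9 ± 10.3 and Tlr2 with 13.3 ± 5.21 TPM (SD, n = 3 libraries). Ly96 (7.77 ± 0.961), Tlr5 (6.12 ± 2.04), Tlr1 (5.79 ± 3.02), Tlr7 (4.45 ± 2.97), Tlr8 (4.35 ± 3.79) and Tlr4 (2.30 ± 2.02 TPM) followed. Each neighbouring pair in this order overlapped between libraries. On the MCS diet the order was led by Myd88, 14.5 ± 2.18 TPM, then Tlr5, 9.94 ± 1.45, and Ly96, 3.62 ± 1.27 TPM, and these 3 did not overlap with one another. The other 7 lay between 0.242 ± 0.118 (Tlr8) and 2.37 ± 0.846 TPM (Cd14), each overlapping with its neighbour. Tlr5 was thus the most abundant of these receptors per length on the MCS diet and the third of 7 on the MCD diet.

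The genes that rose are expressed by macrophages, and macrophage markers differed between the diets. Of 10 pan-macrophage markers 9 rose, while 14.8% of all tested genes rose, and 1, Aif1, did not pass (adjusted p = 0.0502). Aif1 passed by the DESeq2 Wald test (adjusted p = 0.0323), and 6 to 10 of these markers rose with 1 library left out. The summed level of the 10 was 1069 to 2655 CPM in MCD and 268 to 344 CPM in MCS libraries. All 10 recruited macrophage markers rose, with a sum of 837 to 2117 CPM in MCD and 71.1 to 98.4 CPM in MCS libraries. Among 8 resident Kupffer cell markers 0 rose, 3 fell (Clec4f, Cd163 and Timd4), while 9.97% of all tested genes fell, and 5 did not pass (387 to 538 CPM in MCD and 516 to 743 CPM in MCS libraries). The Kupffer markers that fell numbered 1 without MCD replicate 1 or MCS replicate 1, 1 without a count filter and 0 without MCS replicate 2. With library size alone 1 Kupffer marker rose and 2 fell, on each TPM scale 2 rose and 2 fell, and Clec4f did not pass in these settings (adjusted p = 0.0929 to 0.114). Of all tested genes 40.4% rose with library size alone, and 43.2% and 45.4% on the log2(TPM + 1) and log2(TPM + 0.1) scales. Cd68, a lysosomal glycoprotein of macrophages, rose by 2.61 ± 0.25 (adjusted p = 0.000485), and the galectin Lgals3, a marker of recruited macrophages, by 4.47 ± 0.27 (adjusted p = 8.67e-05). None of these markers was at 0 over all libraries, and their part in the receptor changes was not tested. In bulk tissue more cells of a type and more RNA per cell cannot be told apart.

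Markers of other cell types that carry these receptors were also counted. Of the tested markers, 2 of 4 for neutrophils, 2 of 8 for T and NK cells, 1 of 3 for B and plasma cells, 1 of 3 for plasmacytoid dendritic cells, 2 of 8 for stellate cells and 4 of 5 for cholangiocytes rose, 0 of 7 for sinusoidal endothelium did, and none of these fell. Of all tested genes 14.8% rose and 9.97% fell, and the counts of these short lists were not tested against those shares. Spp1, 1 of the 4 cholangiocyte markers that rose, is also 1 of the 10 recruited macrophage markers. The T and NK cell markers numbered 0 without any 1 library other than MCD replicate 2, and the stellate cell markers 6 without MCD replicate 2, 1 without MCS replicate 1 and 0 without MCD replicate 1, MCD replicate 3 or MCS replicate 2. Of the 8 stellate cell markers 7 rose with library size alone and 6 by the DESeq2 Wald test, where 40.4% and 16.9% of all tested genes rose. The neutrophil markers numbered 4 without MCD replicate 2 and 1 without MCS replicate 1 or 2, the B and plasma cell markers 0 without MCD replicate 3 or MCS replicate 1 or 2, and the cholangiocyte markers 2 without MCD replicate 1 or MCS replicate 2. Summed neutrophil markers reached 7.19 to 25.4 CPM in MCD and 3.32 to 4.77 CPM in MCS libraries. The part of these cell types in the receptor changes was not tested.

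Set against 100 CPM of the summed pan-macrophage markers, the genes differed in the ratio of MCD to MCS. These values are the CPM levels above divided by that sum, so they add no independent measurement. Tlr13 had 1.305, 1.24 and 1.51 in MCD replicates 1 to 3 and 0.537, 0.25 and 0.320 in MCS replicates 1 to 3 on this relative scale, 3.65 times as much by the means, and the diets did not overlap. Tlr8 had 0.274, 0.173 and 0.379 in MCD and 0.150, 0.139 and 0.112 in MCS libraries, 2.06 times as much, again without overlap. Both were higher in every MCD library, as in CPM. Exact permutation of 3 against 3 libraries cannot give a two-sided p under 0.1. The share of all tested genes without overlap on this relative scale was not computed. In CPM it was 23.9% higher and 21.4% lower in every MCD library. Cd14 averaged 1.34 ± 0.263 in MCD and 0.946 ± 0.205 in MCS libraries. Tlr1 averaged 0.436 ± 0.0667 in MCD and 0.342 ± 0.154 in MCS libraries, and Tlr2 averaged 1.11 ± 0.258 in MCD and 1.01 ± 0.440 in MCS libraries. Tlr7 was nearly level, at 0.352 ± 0.0628 in MCD and 0.361 ± 0.122 in MCS libraries. For these 4, and for Tlr4 (0.211 ± 0.0535 in MCD and 0.373 ± 0.164 in MCS libraries), the diets overlapped.

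Ly96 and Myd88 were lower relative to the markers in every MCD library: Ly96 averaged 0.152 ± 0.0737 in MCD and 0.578 ± 0.247 in MCS libraries, and Myd88 1.31 ± 0.584 in MCD and 7.15 ± 1.70 in MCS libraries. Tlr5 averaged 0.814 ± 0.706 in MCD and 8.78 ± 2.55 in MCS libraries. The summed markers were 1069 to 2655 CPM in MCD and 268 to 344 CPM in MCS libraries. A gene with level CPM therefore comes out lower on this scale through the divisor alone. This holds for Ly96 and Myd88, whose CPM overlapped, and the divisor also widens the fall of Tlr5. The choice of markers matters for the size. Per recruited macrophage and Kupffer cell markers together, Tlr13 was 8.20 and Tlr8 4.76 times as high in MCD as in MCS libraries, and Tlr1, Tlr2, Tlr7 and Cd14 were also higher without overlap, by 2.82, 2.16, 2.23 and 2.92 times. Tlr5 and Myd88 were lower without overlap on both scales, and the Ly96 values overlapped on the second. Both divisors hold markers that rose on the MCD diet. The second also holds the 8 Kupffer cell markers, of which 3 fell and 0 rose. Their sum was 387 to 538 CPM in MCD and 516 to 743 CPM in MCS libraries. That of the recruited macrophage markers was 837 to 2117 CPM in MCD and 71.1 to 98.4 CPM in MCS libraries. The share of all tested genes without overlap was not computed for the second divisor either.

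**Figure D3:**
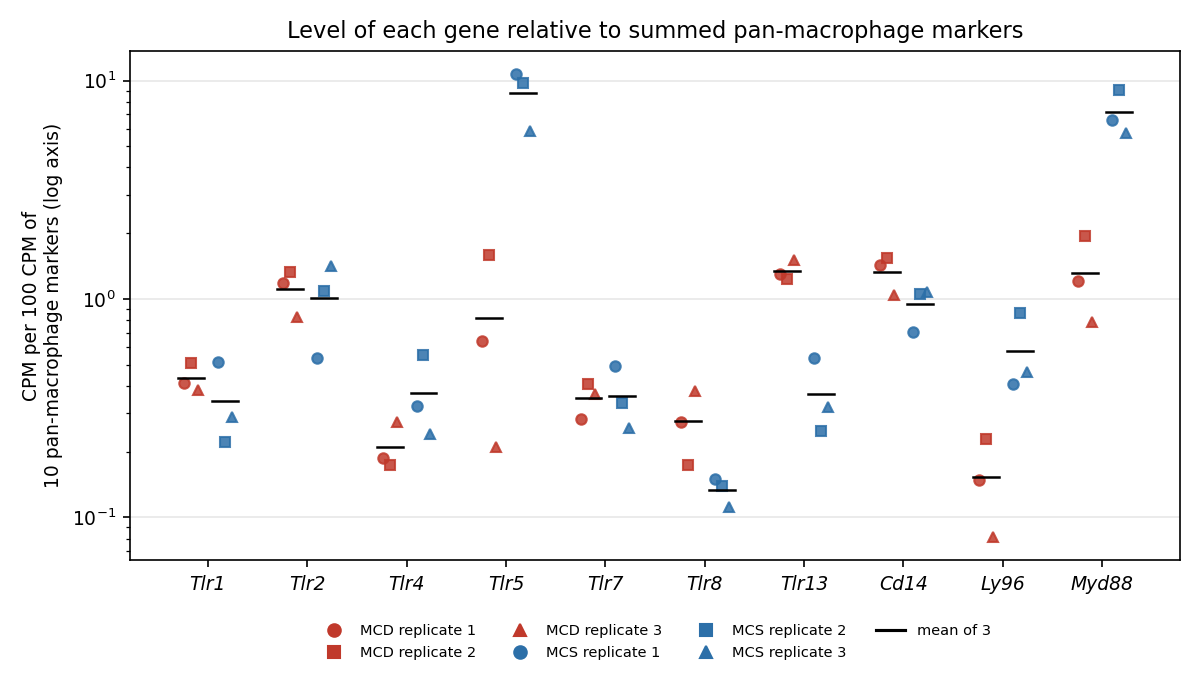
Level of each gene per 100 CPM of 10 summed pan-macrophage markers in each library (log axis), MCD in red, MCS in blue, black lines for means of 3. Tlr13 and Tlr8 lie higher in every MCD library, Tlr1, Tlr2, Tlr4, Tlr7 and Cd14 overlap between diets, and Tlr5, Ly96 and Myd88 lie lower in every MCD library. The summed markers were themselves higher in every MCD library.

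Similar profiles were ranked among tested genes averaging 5 CPM or more, by the root mean square difference of centred log2 CPM over the 6 libraries. The nearest to Tlr13 was the integrin subunit Itgam, a myeloid surface marker, at 0.12 (log2 fold change 4.26 ± 0.50), then Emp1 at 0.19. The nearest to Cd14 was the transcription factor Klf6 at 0.13, then Arhgef2 at 0.16, and the third nearest gene to Tlr2 was Cd14 itself, at 0.26, after P2ry6 at 0.19 and Ear2 at 0.21. Rgs2 at 0.14, Pla2g7 at 0.18 and Clec4a2, a C-type lectin receptor of myeloid cells, at 0.18 were nearest to Tlr1. Tlr8 lay nearest to the collagen gene Col5a2 at 0.10 and to Mrc2 at 0.13, Tlr7 to Slc8a1 at 0.17 and Tlr4 to Itga4, an integrin subunit of leukocytes, at 0.20. Tlr5 lay nearest to Ldhd at 0.13, Apon at 0.15 and Tfr2, a transferrin receptor of hepatocytes, at 0.15. All of these profiles share the same 6 libraries and the same diet contrast.

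The remaining genes of the pathway were taken from lists of other receptors, accessory proteins, signalling proteins and targets. Their counts stand beside the 14.8% of all tested genes that rose and the 9.97% that fell. Of 4 other tested Toll-like receptors 2 rose, Tlr6 (3.44 ± 0.54, adjusted p = 0.00353) and the DNA sensor Tlr9 (2.65 ± 0.65, adjusted p = 0.0207), and the double-stranded RNA sensor Tlr3 (0.51 ± 0.35, adjusted p = 0.314) and Tlr12 (−0.41 ± 0.32, adjusted p = 0.390) did not pass. Tlr6 had 1.66, 2.13 and 3.72 CPM in MCD and 0.173, 0.227 and 0.276 CPM in MCS replicates 1 to 3, where it rests on 3, 3 and 5 counts. Tlr9 did not pass without MCD replicate 1 or MCS replicate 1 or 2 (adjusted p = 0.0603 to 0.0808), was 3.46 without MCS replicate 3, and did not pass by limma-voom (2.76, adjusted p = 0.0515). Among 9 tested accessory and trafficking proteins 4 rose and 1 fell. Cd36, a fatty acid transporter and Tlr2 co-receptor, and Cd180, a Tlr4-like receptor of B cells and macrophages, rose by 2.63 ± 0.29 and 2.64 ± 0.33 (adjusted p = 0.000855 and 0.00136). The other 2 were Ly86, the partner of Cd180, and Unc93b1, which carries the endosomal receptors to endosomes (1.83 ± 0.33 and 0.85 ± 0.17, adjusted p = 0.00646 and 0.0104).

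Cnpy3, a chaperone of Toll-like receptors, fell by 0.53 on the log2 scale (adjusted p = 0.0324), but its change was 0.017 with library size alone and 0.13 on both TPM scales (adjusted p = 0.465 to 0.928). It also did not pass without MCD replicate 1, MCD replicate 3, MCS replicate 1 or MCS replicate 2, and without MCD replicate 2 there were 2 accessory genes that fell. The endotoxin-binding protein Lbp, secreted by hepatocytes, had 86.4 CPM in MCD and 177 CPM in MCS libraries on average (−1.03 ± 0.40, adjusted p = 0.0942), and it passed without MCD replicate 2 (−1.58, adjusted p = 0.00416) and by the DESeq2 Wald test (−1.04, adjusted p = 0.0192).

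**Figure D4:**
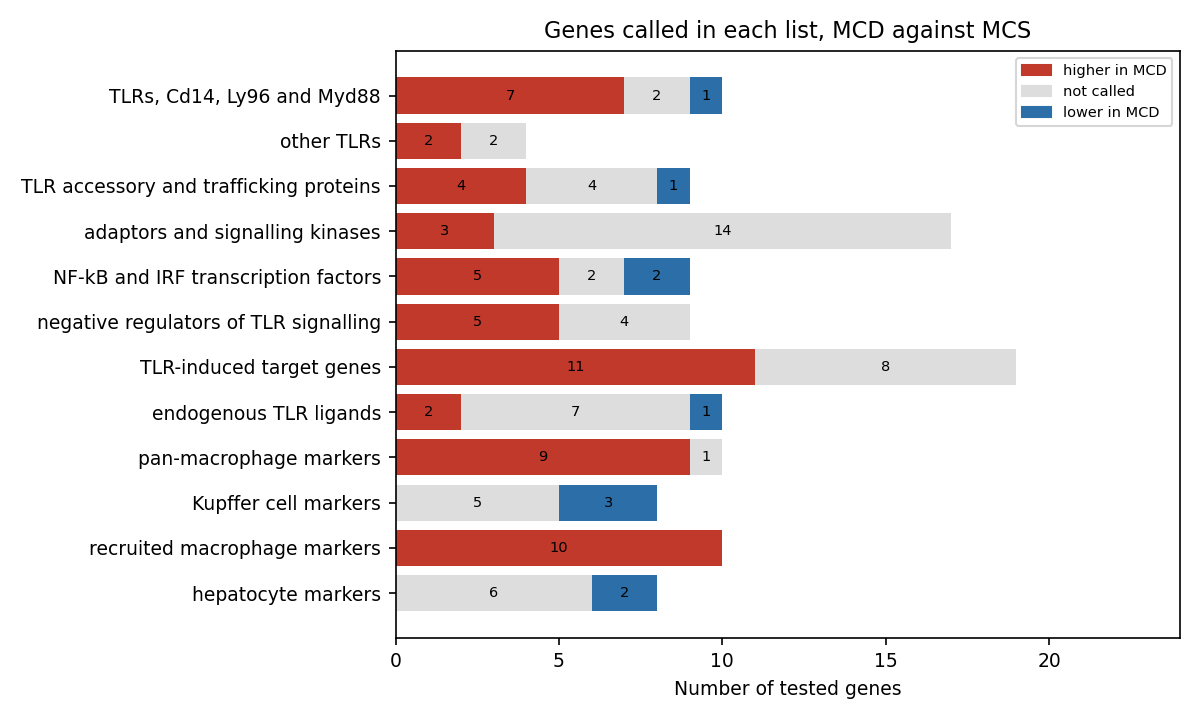
Number of tested genes in each list that were higher in MCD (red), lower in MCD (blue) or not called (grey) at adjusted p under 0.05 by edgeR. Of the 17 adaptors and kinases 3 were higher in MCD, and of the 10 receptors, co-receptors and Myd88 7 were; the difference between lists was not tested.

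Of 17 adaptors and kinases downstream of the receptors 3 rose, 0 fell and 14 did not pass, a share near the 14.8% of all tested genes that rose, and the median change (log2) was 0.13. The adaptor Ticam2, which serves Tlr4, rose by 1.95 ± 0.39 (adjusted p = 0.00971), the kinase Ikbke by 1.02 ± 0.16 (adjusted p = 0.00358) and Traf3 by 0.76 ± 0.15 (adjusted p = 0.00985; 0.0543 without MCD replicate 1). With library size alone 11 of the 17 rose, against 40.4% of all tested genes. On the log2(TPM + 1) and log2(TPM + 0.1) scales 10 rose, against 43.2% and 45.4% of all tested genes. Irak4, the first kinase bound by Myd88, did not pass at 0.22 ± 0.17 on the log2 scale (adjusted p = 0.361), but rose with library size alone (0.80, adjusted p = 0.0286). Traf6, the ubiquitin ligase after it, was at −0.03 ± 0.16 (adjusted p = 0.909), and at 0.53 with library size alone (adjusted p = 0.0491).

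Of 9 NF-kB and IRF transcription factors 5 rose, while 14.8% of all tested genes rose and 9.97% fell. The 5 include Relb (2.67 ± 0.28, adjusted p = 0.000636) and Nfkb2 (1.19 ± 0.16, adjusted p = 0.00215), the pair of the non-canonical branch. Irf8, a factor of myeloid cells, rose by 1.60 ± 0.28 (adjusted p = 0.00576), and Irf5, which acts after Myd88, by 1.25 ± 0.20 (adjusted p = 0.00352). Irf7 (−0.64 ± 0.16, adjusted p = 0.0222) and Irf3 (−0.56 ± 0.16, adjusted p = 0.0314) fell, but with library size alone both were near 0 (−0.08 and −0.03), on the TPM scales their log2 fold changes were 0.060 and 0.0076 with a pseudocount of 1, and 0 of the 9 fell there. Without MCD replicate 1 or MCS replicate 1 or 2 neither passed, and without MCS replicate 3 only Irf7 did. Negative regulators rose in 5 of 9 tested cases and fell in 0, with a median of 0.69. The ubiquitin-editing enzyme Tnfaip3 (A20) had 18.5 CPM in MCD and 2.24 CPM in MCS libraries on average and rose by 3.04 ± 0.19 (adjusted p = 8.67e-05), and its partner Tnip1 rose by 1.76 ± 0.18 (adjusted p = 0.000606). Irak3, a brake on IRAK signalling, rose by 2.11 ± 0.36 (adjusted p = 0.00505). On the log2(TPM + 1) and log2(TPM + 0.1) scales 8 of the 9 rose, against 43.2% and 45.4% of all tested genes. Without MCD replicate 2 there was 1 negative regulator that fell.

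Of 19 tested genes that Toll-like receptor ligands induce in macrophages 11 rose, 0 fell and 8 did not pass, with a median of 1.74. Of all tested genes 14.8% rose and 9.97% fell. The adhesion molecule Icam1 rose by 1.88 ± 0.14 (adjusted p = 0.000202) and the chemokine Ccl5 by 2.80 ± 0.39 (adjusted p = 0.00215). In 16 of the 19 the log2 fold change was above 0. Saa3 (−3.30, adjusted p = 0.104) and Lcn2 (−0.75, adjusted p = 0.681) were below 0 and did not pass. Saa3 had 235, 192 and 3.03 CPM in MCS replicates 1 to 3, and 9.39 to 23.8 CPM in MCD libraries. Lcn2 had 1360, 1135 and 15.2 CPM in MCS replicates 1 to 3, and 370 to 738 CPM in MCD libraries. The summed list was at 531 to 888 CPM in MCD and 68.7 to 1640 CPM in MCS libraries. Without MCS replicate 3 there were 2 genes that fell. Il1b (−0.23 ± 0.42, adjusted p = 0.713) and Tnf (2.56 ± 1.12, adjusted p = 0.125) did not pass. Tnf had 0, 8 and 0 counts in MCS replicates 1 to 3 and passed without MCS replicate 2 (adjusted p = 0.0284). The counts of these lists were described and not tested as sets.

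The authors' deposited table compares mean TPM without TMM scaling, and the test behind it is not named in the labels. In the authors' deposited table the same 7 genes had a false discovery rate under 0.05, with log2 fold changes between 2.69 (Tlr4) and 5.26 (Tlr13). The authors' deposited table gives Tlr5 −0.70, Ly96 1.10 and Myd88 0.61, with false discovery rates of 0.104, 0.114 and 0.114.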

How the data were processed

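Liver polyA RNA of 6 libraries was grouped by the diet in the sample titles. Per the submitters' processing notes, GRCm39 is the build named, and RSEM, HISAT2 2.1.0, Bowtie2 2.2.8, fastp 0.18.0 and StringTie 1.3.1 are named without their roles. The authors deposited, per the file headers, an estimated count and a TPM value per gene and library, with their log2 fold change, p-value and FDR; 64 cells with a count of 0 have a TPM above 0, so the whole-number counts were treated as rounded estimated counts. TPM values deposited by the authors sum to the same total per library.

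Counts were fitted in R 4.3.3 with edgeR 4.0.16 (filterByExpr, minimum count 10; TMM; robust quasi-likelihood, diet as the only term; SE is the log2 fold change over the square root of F), with limma 3.58.1 and DESeq2 1.42.0 as alternatives, and checked on simulated counts. Replicates differed by more than counting noise in every pair (the lowest ratio of chi-square to its degrees of freedom was 14.6). The members, gene lists and rules were chosen with earlier results of these data known. The rule names all 10 members, 2 called genes per list and direction with the smallest p (with none called, the most abundant), and the 3 nearest profiles per called member. Not all are reported, and Alb, Aif1, Timd4, Acaa1a, Lbp, Tlr3, Tlr12, Ly86, Unc93b1, Traf3, Traf6, Irak3, Irak4, Irf5, Irf8, Il1b, Tnf, Saa3, Lcn2, S100a8 and S100a9 were named after their values were seen. Sequences and annotation come from RefSeq (GRCm38.p6) and GENCODE M21, another build than the counts, and all 10 members matched by symbol in the gene table. Floors cover counting error only, whereas each SE includes the spread among libraries.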

Additional observations from a re-analysis of the deposited data

How the results depend on the processing

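The 7 genes that rose numbered 6 or 7 with 1 library left out, 7 with library size alone, DESeq2 size factors, the DESeq2 Wald test or no count filter, 6 with the replicate block and at adjusted p under 0.01, 5 by limma-voom and 9 on the TPM scales. The 1 gene that fell, Tlr5, was not called with library size alone, on the log2(TPM + 1) scale, without a count filter or at adjusted p under 0.01 (0 genes each), and with 1 library left out the count was 0 or 1. Over all genes 5095 rose and 348 fell with library size alone (93.6% of calls upward, against 59.7% with TMM), 5449 and 264 on the log2(TPM + 1) and 5718 and 274 on the log2(TPM + 0.1) scale, and 754 and 304 at adjusted p under 0.01. With 1 library left out, 946 to 2363 rose and 400 to 2072 fell. The cause of these shifts was not tested. The changes of sign given next do not cover Saa3 and Lcn2, whose values under the other settings were not compared.

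Among the members, the genes named by the rule and the other genes named, log2 fold changes turned sign for Myd88 (0.49 with library size alone, 0.57 and 0.60 on the log2(TPM + 1) and log2(TPM + 0.1) scales, 0.0016 without MCD replicate 1 and 0.059 without MCS replicate 2, with a range of −0.18 to 0.059 over single libraries left out), Cnpy3 (0.017 with library size alone, 0.13 on both TPM scales), Irf7 (0.060 on both TPM scales), Irf3 (0.0076 and 0.0079 on the TPM scales), Tlr12 (0.14, 0.29 and 0.31 with library size alone and on the log2(TPM + 1) and log2(TPM + 0.1) scales), Traf6 (0.53, 0.54 and 0.63 in these settings, 0.0093 without MCD replicate 1 and 0.068 without MCS replicate 1, lowest −0.17 with 1 library left out), Il1b (0.35, 0.34 and 0.42 in these settings, 0.11 without MCS replicate 3, lowest −0.63 with 1 library left out), Alb (0.47, 0.62 and 0.62 in these settings, 0.13 without MCD replicate 3 and 0.14 without MCS replicate 3, lowest −0.25 with 1 library left out) and the endothelial marker Stab2, not called in any setting (0.14 with library size alone, 0.38 and 0.41 on the TPM scales, 0.35 without MCS replicate 3, with −1.06 without MCD replicate 3 as the other end). No label says that the replicate numbers pair the samples, and the values do not settle whether they do. Deviations of same-numbered libraries correlated at 0.08, 0.15 and 0.25. Each MCD replicate correlated best with the MCS library of the same number, whereas MCS replicate 1 correlated best with MCD replicate 2 (0.14). With the replicate block 1987 genes rose and 1296 fell, and among the 10 genes only Tlr4 lost its call (1.72, adjusted p = 0.0527). With the block 5 Kupffer cell, 2 accessory and, for sinusoidal endothelium, 1 of the genes listed fell, 7 stellate cell markers rose, and Lbp passed (−1.12, adjusted p = 0.00658). Depth limits genes with few counts in MCS libraries, among them Tlr8 (5 to 7), Tlr6 (3 to 5) and Tnf (0 to 8).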

Other observations

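Of 10 tested host molecules that can act on Toll-like receptors 2 rose, 1 fell and 7 did not pass, while 14.8% of all tested genes rose and 9.97% fell, and the median change (log2) was 0.56. The matrix glycoprotein Tnc, a ligand of Tlr4, had 9.60 CPM in MCD and 0.615 CPM in MCS libraries on average (3.90 ± 0.95, adjusted p = 0.0259), and the collectin Sftpd had 4.82 CPM in MCD and 0.563 CPM in MCS libraries (3.10 ± 0.47, adjusted p = 0.00310). Tnc did not pass without MCD replicate 1, MCD replicate 3, MCS replicate 2 or MCS replicate 3, and its log2 fold change was 3.20 without MCD replicate 3 and 5.41 without MCS replicate 1. The fibrinogen chain Fga had 2059 CPM in MCD and 5117 CPM in MCS libraries (−1.31 ± 0.37, adjusted p = 0.0318) and did not pass without MCD replicate 1, MCD replicate 3, MCS replicate 1 or MCS replicate 2. The neutrophil alarmins S100a8 and S100a9 did not pass (1.06 ± 0.63 and 1.39 ± 0.68, adjusted p = 0.244 and 0.164), though S100a9 did without MCD replicate 2 (1.80, adjusted p = 0.0212). Without MCD replicate 2 the number that rose was 5, and without MCD replicate 1, MCD replicate 3 or MCS replicate 2 or 3 it was 1. The number that fell was 0 without MCD replicate 1, MCD replicate 3 or MCS replicate 1 or 2, and 2 without MCS replicate 3. With library size alone 4 rose and 1 fell, where 40.4% of all tested genes rose. On the log2(TPM + 1) scale 4 rose and 0 fell, where 43.2% of all tested genes rose.

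The deposited annotation assigns 99 genes to the Toll-like receptor signalling pathway of KEGG, which include 9 of the 10 genes described here and not Tlr13. Of the other 90 genes 69 were tested: 18 rose, 5 fell and 46 did not pass, against 14.8% of all tested genes that rose and 9.97% that fell, and their median change (log2) was 0.15. Of all tested pathway genes 24 rose and 6 fell. With library size alone 49 rose and 0 fell, where 40.4% of all tested genes rose. The number that fell was 11 without MCD replicate 2, 2 without MCD replicate 1 or MCS replicate 1, 1 without MCS replicate 2 and 3 without MCS replicate 3.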
